A study of Mus musculus with 3 samples.

Results

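Lone cytosines are the cytosines of an mRNA that stand by themselves. They were chosen by their position and coverage alone: a cytosine had to have a coverage of at least 10 reads in each of 3 libraries, and no other cytosine of the same RNA could be listed within 10 nt on either side in any library. The rule found 11448 lone cytosines among 1639820 cytosines with that coverage (called testable here), or 0.698%. They lay in 4132 of the 9395 RNAs with a testable cytosine, and these RNAs held another 1154983 testable cytosines, which serve as the comparison.

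The 3 libraries are bisulfite-converted poly(A)+ RNA of mouse embryonic stem cells of the J1 background and the genotype Tet1-/-,Tet2-/-,Tet3-/-, replicates 1, 2 and 3 of 1 group. No other genotype, treatment or time was analysed here, and all values below come from cells without the 3 Tet enzymes. The cells grew in serum and LIF on mouse embryonic fibroblast feeders, which were then removed by letting them attach to dishes. Nothing in the labels says that the replicates were separate cultures, so the spread between them may be technical.

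Tet enzymes oxidise 5-methylcytosine. In mRNA this modified base is written by NSUN2 and NSUN6, and bound by Alyref, an export factor, and Ybx1, an RNA-stabilising protein. Bisulfite converts plain cytosine to uracil and leaves 5-methylcytosine as it is, so the unconverted share of reads at a cytosine holds modified cytosine and failed conversion together. The motif known for NSUN6 contains several cytosines, so a lone cytosine cannot lie in it. Cytosines close together are read from the same molecules. A lone cytosine has no listed neighbour within its window, but it can still share reads with cytosines just outside that window.

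The short stretch around a lone cytosine can be shown for sites at the 5′ end of the mRNA, where the RefSeq table of gene starts (GRCm38.p6) gives the first 50 bases. Of 23 lone cytosines in the first 50 nt, 11 lay in an RNA whose listed cytosines there (at least 5) all fell on a C of that table. The sequences show what the rule selects: the capital C is the lone cytosine, and up to 10 bases on each side are printed as far as listed cytosines anchor the match.

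Fanci: tggagtagagCgggaattttg
Ndufaf7: ggaatgaatgCtttggtgaga
0610009B22Rik: ggtggaCgttgagtgtg
Ilf2: agCggttgtgtgg
Sfswap: gttgaagttgC
Pet100: gggggtgaagC
Urm1: aggtggagttC
Sf3a3: aaaatggagaC
Med4: ggaaaaggagC
Abt1: atggtgaaagC
Rpl7l1: ggaaagatggC

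No second C occurred in the 149 bases of these stretches, of which 66 were G, 39 A and 33 T. Over all 3184 mRNA starts that matched in the same way, 37044 of the 37122 C letters between the first and last listed cytosine were listed, or 99.8%. Within these starts, an unlisted position was nearly always a base other than C. The stretch of Fanci, a DNA repair gene, is chr7:79392347-79392367 on the plus strand, and its cytosine at position 20 had no unconverted read among 47. That of Ndufaf7, an assembly factor of respiratory complex I, is chr17:78937162-78937182 on the plus strand, with 1 unconverted read of 53 at position 38. Sfswap, a splicing regulator, had 7 of 420 at position 46, and Pet100, a cytochrome oxidase assembly factor, 4 of 172 at position 47. Together the 11 sites had 20 unconverted reads of 1319. Their mean shares over the libraries ran from 0% to 3.33% with a median of 1.33%, and 3 of the 11 had no unconverted read.

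Most lone cytosines had a neighbour just outside the window. The nearest listed cytosine was 11 nt away at 3623 of them (31.6%), 11 to 15 nt away at 9692 (84.7%) and more than 20 nt away at 372. The median sum of the distances to both sides was 30 nt. Only 56 lone cytosines were the first or last listed cytosine of their RNA. The 5 longest listed gaps were of another kind. They ran over 1024 to 2877 nt, in Srp54a, Efcc1, Srl, Synrg and Bach2. The cytosine at their far side had a mean coverage of only 1 to 2 reads over the libraries. No library listed a cytosine with fewer than 3 reads, so a site beside such a stretch can count as lone for lack of reads. The sequence of these gaps was not looked at. None of these 5 sites had more than 2 unconverted reads, in 39 to 358 reads. At 8181 lone cytosines the nearest listed cytosine on each side lay within 50 nt and had at least 10 reads in every library.

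Lone cytosines lay further towards the 3′ end than the other cytosines of the same RNAs. Their median position was at 0.543 of the highest listed position of the RNA, against 0.434 for the others. With each RNA cut into 10 equal parts, the first held 5.30% of the lone and 13.3% of the other cytosines, and the last 12.9% and 6.88%. Per 100 testable cytosines, 0.290 were lone in the first part and 1.27 in the last. The highest listed position stands in for the transcript length, and the place of a site in the coding sequence or an untranslated region was not used here.

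**Figure D1:**
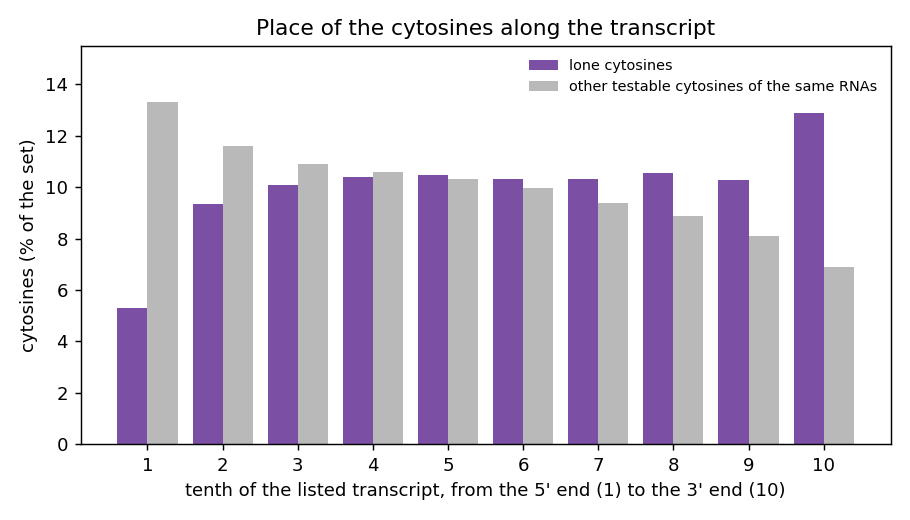
Share of the 11448 lone (purple) and 1154983 other testable cytosines of the same RNAs (grey) in each of 10 equal parts of the listed transcript, from the 5′ end to the 3′ end. The first part holds 5.30% of the lone and 13.3% of the other cytosines, the last 12.9% and 6.88%.

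Lone cytosines were few in most RNAs. A single one was found in 1721 RNAs, 2 to 4 in 1731, 5 to 9 in 554 and 10 or more in 126. The counts were not adjusted for the number of testable cytosines of an RNA, which is given beside them. Atrx, a chromatin remodeller, had 34 among 1112 testable cytosines (3.06%), and Ranbp2, a large protein of the nuclear pore, 24 of 617 (3.89%). Ncl, which encodes nucleolin, had 24 of 984 (2.44%), and Prrc2c 24 of 1504 (1.60%). Eif3a, a subunit of a translation initiation factor, had 21 of 802, Mdn1, an ATPase of ribosome assembly, 21 of 2543, and Rif1, a regulator of replication timing, 21 of 811. Scaf11, Top2a, the DNA topoisomerase of dividing cells, and Trip12, a ubiquitin ligase, had 20 each, of 835, 864 and 1224.

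Among the gene groups, the SR and hnRNP splicing regulators held 87 lone of 6043 testable cytosines, or 1.44%, in 16 of 27 testable genes, against 0.698% over all genes. Srsf6 had 14, Hnrnpul2 11 and Hnrnph1 9. The mRNAs of early-response genes with AU-rich elements stood below the overall value, with 24 of 5784 (0.415%) in 10 of 20 genes, among them Ccnd1, Mcl1 and Zfp36l2 (also in the next list) with 4 each. The proteins that bind such elements had 12 of 1962 (0.612%), with 4 in Zfp36l2 and 3 each in Khsrp and Tial1. Cytosolic ribosomal proteins had 66 of 12091 (0.546%) in 39 of 81 genes, led by Rpl10l with 6, Rps15a with 5 and Rpl15 with 3. The replicative helicase and Pcna had 20 of 3643 (0.549%), of which Mcm4 had 6 and Mcm3 and Mcm6 4 each. Pluripotency genes had 19 of 3473 (0.547%): 7 in Lin28a, 6 in Sox2, 4 in Klf4 and 2 in 1 other gene. The writers and readers of RNA 5-methylcytosine had 13 of 2215 (0.587%), with 3 each in Nop2, Nsun2 and Ybx1. These shares describe the spacing of listed cytosines and were not tested. Stretches without cytosine and stretches without reads were not told apart for the groups.

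The cells' labels were looked at through the same tables. The pluripotency genes, which also serve as embryonic stem cell markers, were all listed and took 0.513% to 0.543% of the coverage of a library. The fibroblast markers, for the feeders, took 0.0520% to 0.0697% (7 of 10 listed; Dcn, Lum and Postn had no listed cytosine) and the early differentiation markers 0.0195% to 0.0217% (5 of 8 listed). The fibroblast markers held 3 lone cytosines among 1437 testable ones (0.209%), 1 each in Col1a2, Thy1 and Vim. The differentiation markers held 4 among 532 (0.752%), all in Nes. Of the targeted genes, Tet1 had 1 lone cytosine (0 of 41 reads unconverted), Tet2 had 2 (1 of 158) and Tet3 none. Without knowing which exons were deleted, these values do not check the knockout.

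Lone cytosines were slightly less converted than the other cytosines of the same RNAs in every library. The unconverted share over all reads at lone cytosines was 1.75%, 1.63% and 1.62% in replicates 1, 2 and 3. At the other testable cytosines of the same RNAs it was 1.53%, 1.44% and 1.40% in the same order. All 3 lone values lay above all 3 of the others, and the means were 1.67% ± 0.0707 and 1.46% ± 0.0634 (SD, n = 3). The difference was 0.225, 0.187 and 0.224 percentage points, a mean of 0.212 ± 0.0219, which is larger than its spread between libraries. An exact two-sided sign-flip permutation test over the libraries gave p = 0.25, the smallest that n = 3 allows. When every lone cytosine was set against the share of its own RNA, 17006, 16165 and 14876 unconverted reads were seen where 14803, 14304 and 12808 would match that share. The ratio of seen to matched reads was 1.15, 1.13 and 1.16, a mean of 1.147 ± 0.0158 (SD, n = 3, with the same exact p of 0.25).

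The lone share was higher in each of 4 classes of coverage. In the class of 10 to below 20 reads of mean coverage, lone cytosines stood at 1.75% ± 0.0364 and the others at 1.48% ± 0.0619. At 100 reads or more they stood at 1.64% ± 0.0783 and 1.45% ± 0.0631 (SD, n = 3 for each). The difference was 0.265 ± 0.0404, 0.259 ± 0.0117, 0.229 ± 0.0202 and 0.195 ± 0.0303 percentage points from the lowest to the highest of 4 coverage classes, and it was above 0 in each library of each class. Counting each cytosine once, rather than each read, gave 0.248 ± 0.00938 points. The median coverage was 32 reads in both sets, so depth did not differ between them at the median.

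**Figure D2:**
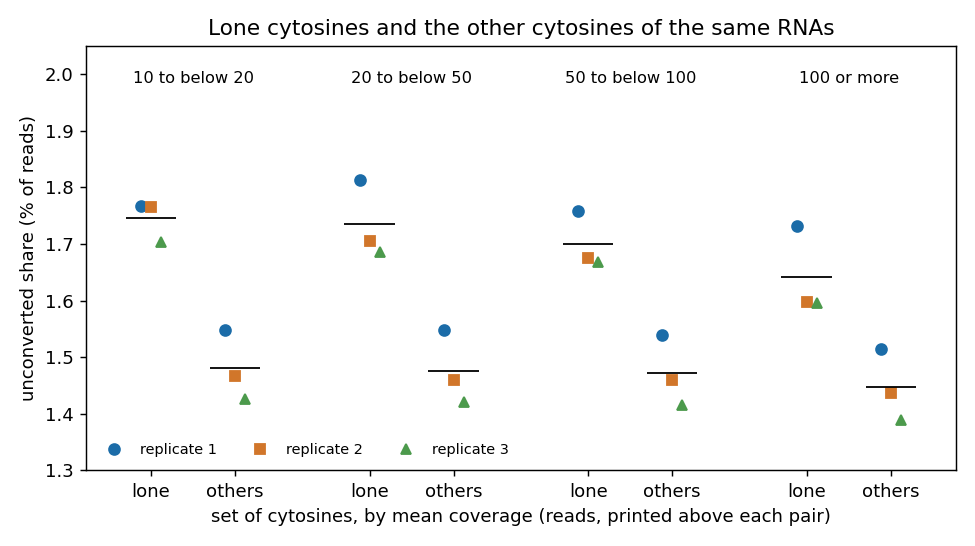
Unconverted share (percent of reads; the axis starts at 1.3) at lone cytosines and at the other testable cytosines of the same RNAs, in 4 classes of mean coverage. Symbols are the 3 libraries and lines their means; within each class every lone point lies above every point of the others, from 1.75% against 1.48% at the lowest coverage to 1.64% against 1.45% at the highest.

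The difference was smaller without the nucleolin and prothymosin mRNAs, which hold a few very deep sites. Without the transcripts of Ncl and Ptma, a choice made after seeing the data, it was 0.166 ± 0.0342 points and the ratio within RNAs 1.117 ± 0.0233 (SD, n = 3). Taking the median of the differences within the 678 RNAs with at least 5 lone and at least 5 other testable cytosines gave 0.114 ± 0.0510 points. Among the 126 RNAs with 10 or more lone cytosines, the lone share was above that of the other cytosines in all 3 libraries in 52, below it in all 3 in 15 and mixed in 59. Polr3g, a subunit of RNA polymerase III, and Etnk1, an ethanolamine kinase, had the highest differences of these RNAs, 1.82 ± 1.35 and 1.58 ± 0.730 points, and Naa15, a subunit of an N-terminal acetyltransferase, the lowest, at -0.555 ± 0.625 (chosen after their values were seen). In Etnk1, 940 of the 3268 reads at its 12 lone cytosines came from position 4810, which stood at 7.18% ± 2.23. The difference without this site was not computed. In Atrx the lone cytosines stood at 1.90% ± 0.128 and the others at 1.50% ± 0.126. In Mdn1 they stood at 2.20% ± 0.185 and 1.44% ± 0.0386, and in Trip12 at 1.14% ± 0.278 and 1.31% ± 0.0543 (SD, n = 3).

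The unconverted share was higher at wider spacing, though not at every step. Over all testable cytosines it was 1.41% ± 0.0659 where the nearest listed cytosine was adjacent, 1.42% ± 0.0620 at 2 nt, 1.49% ± 0.0624 at 3 nt, 1.59% ± 0.0625 at 4 to 5 nt and 1.64% ± 0.0665 at 6 to 10 nt. Lone cytosines with the nearest one at 11 to 15 nt stood at 1.64% ± 0.0667, those at 16 to 20 nt at 1.74% ± 0.0880 and the 372 beyond 20 nt at 1.97% ± 0.124 (SD, n = 3 for each). Just outside and just inside the limit, at 10 and 11 nt, the values were 1.71% ± 0.0698 and 1.68% ± 0.0600. The difference between them within each library was not taken. The values at 9 and 12 nt were 1.67% ± 0.0710 and 1.61% ± 0.0648. The step from adjacent to beyond 20 nt was 0.553 ± 0.0594 points and had the same sign in all 3 libraries. Without Ncl and Ptma it was 0.371 ± 0.0746 points, and the value beyond 20 nt was 1.78% ± 0.108. At 16 to 20 nt the value without them was 1.63% ± 0.112, and that at 11 to 15 nt was not computed without them. With each cytosine of all transcripts counted once, the share was 1.718% at 11 to 15 nt, 1.716% at 16 to 20 nt and 1.857% beyond 20 nt. By number of neighbours, the share was 1.67% ± 0.0707 with no listed cytosine within 10 nt, 1.62% ± 0.0601 with 1, 1.50% ± 0.0638 with 3 to 4 and 1.38% ± 0.0649 with 9 to 10. With more than 10 it was 1.44% ± 0.0614, above the value at 9 to 10.

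The unconverted share differed with the side of the gap. In the RNAs with a lone cytosine, cytosines with no listed cytosine within 10 nt on the 5′ side, but with one on the 3′ side, stood at 1.68%, 1.61% and 1.57% in replicates 1, 2 and 3. Those with a gap on the 3′ side alone stood at 1.54%, 1.45% and 1.42%, and those with no gap at 1.51%, 1.43% and 1.39%. A gap on the 5′ side alone thus went with a share 0.177 ± 0.00507 points above that of cytosines with no gap, and a gap on the 3′ side alone with one 0.0250 ± 0.00639 points above it. The difference between the sides was 0.152 ± 0.00976 points (75873 and 76992 cytosines, exact sign-flip permutation p = 0.25, n = 3) and had the same sign in each library. Lone cytosines, with gaps on both sides, stood 0.0482 ± 0.0250 points above those with a 5′ gap alone. Among lone cytosines, those with a 3′ gap of over 20 nt stood at 1.87% ± 0.0919 and those with a shorter one at 1.62% ± 0.0679 (SD, n = 3), and the difference without Ncl and Ptma was 0.0958 ± 0.0319 points. For the 5′ gap the difference was 0.0969 ± 0.0184 points with and -0.0126 ± 0.0449 points without them, so the sign turned without these transcripts. Counting each cytosine once, those with a 3′ gap of over 20 nt stood at 1.75% and those with a shorter one at 1.72%, with differences of 0.0673, -0.0278 and 0.0503 points in replicates 1, 2 and 3. For the 5′ gap the difference counted in this way was -0.0104 ± 0.0748 points, with libraries on both sides of 0. Which base lay on either side was not tested, since no sequence beyond the first 50 nt was used.

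**Figure D3:**
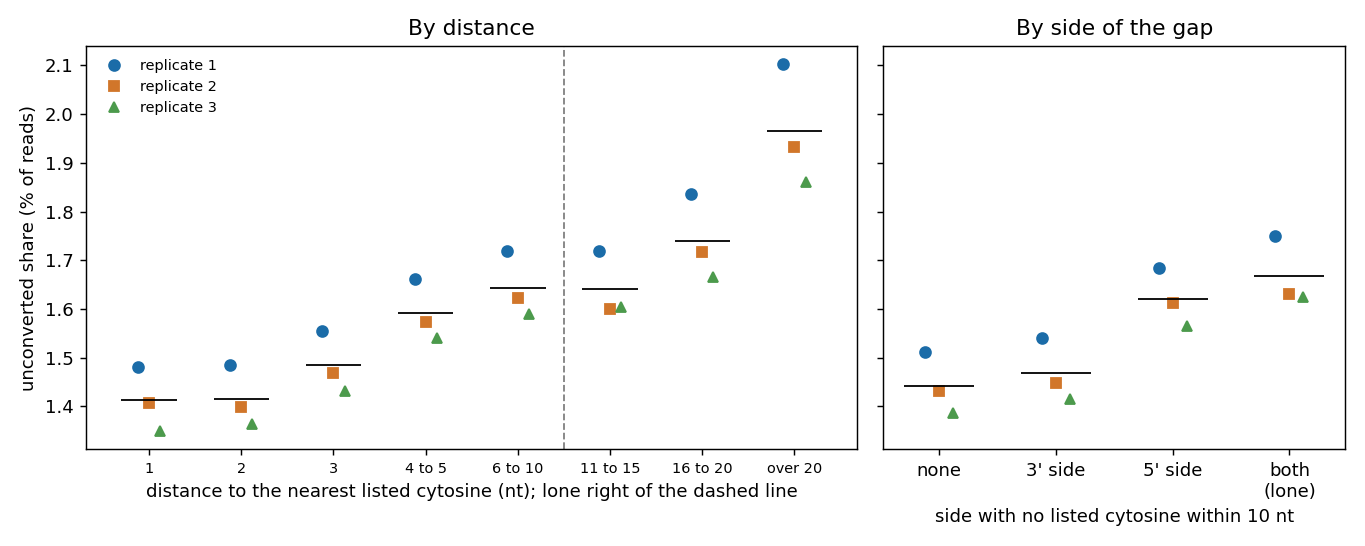
Left, unconverted share (percent of reads; the axis does not start at 0) of all testable cytosines by distance to the nearest listed cytosine in nt, with the lone cytosines right of the dashed line; right, of the testable cytosines in RNAs with a lone cytosine, by the side that lacks a listed cytosine within 10 nt. Symbols are the 3 libraries and lines their means; the share goes from 1.41% next to another cytosine to 1.97% beyond 20 nt, and is 1.62% with a 5′ gap alone against 1.47% with a 3′ gap alone.

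With each RNA cut into 3 equal parts, lone cytosines in the first stood at 1.84% ± 0.0621, those in the middle at 1.58% ± 0.0864 and those in the last at 1.60% ± 0.0607 (SD, n = 3). The others stood at 1.49%, 1.44% and 1.42%, so the excess was 0.350 ± 0.00820, 0.143 ± 0.0407 and 0.180 ± 0.0205 points. The first part held the deep sites of Ncl and Ptma. Between the first and the later parts lone cytosines differed by 0.251 ± 0.0264 points with these transcripts and by 0.108 ± 0.0106 without them, and by 0.0834 ± 0.0295 when each cytosine of all transcripts counted once.

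Which lone cytosines stood above the background one by one was asked with a one-sided exact binomial test against the library-wide unconverted share. Fisher's method joined the p-values of the 3 libraries, and the Benjamini-Hochberg adjustment ran over all 1639820 testable cytosines. With an adjusted p below 0.05, a mean of 10% or more and every library above background, 16 lone cytosines in 16 genes were called candidates. Over all testable cytosines 0.0473% were called. The lone count came to 0.140%, or 139.8 per 100000 (exact Clopper-Pearson 95% interval 79.9 to 227), against 44.0 per 100000 (40.2 to 48.0) of the other cytosines of the same RNAs. Intervals cover counting error only, and no test of this difference between sets was made. Without a test, 35 lone cytosines (0.306%) had a mean share of at least 10%, against 0.138% of all testable cytosines, and 1 had at least 20%, against 0.00543%. Lone cytosines made up 2.06% of the 775 candidates. All 16 were weak sites, with a median share of 13.0%, at most 20.0%, and a mean coverage of 12.3 to 46 reads. In single libraries they rested on 1 to 6 unconverted reads.

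Of all testable cytosines 15 (0.000915%) had a mean share of at least 50%, and none of these was lone. With 0 of 11448, a count of 0 allows up to 26.2 per 100000 (3 counts of the total), and the upper end of the exact Clopper-Pearson 95% interval is 32.2 per 100000. When a site had to pass on the weakest of its 3 library p-values, none of the 16 was called, against 109 (0.00665%) of all testable cytosines. Of the 16, 9 were called without replicate 1, 8 without replicate 2 and 6 without replicate 3. In all, 12, 10 and 8 lone cytosines were called then, and 0.0455%, 0.0458% and 0.0485% of all testable cytosines. At an unadjusted combined p below 0.05, 448 lone cytosines (3.91%) were above background in each library, against 2.17% of all testable cytosines.

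The highest lone candidate lay in Srsf2, a splicing factor that binds exons. Its position 1742 was unconverted in 3 of 10, 2 of 12 and 2 of 15 reads in replicates 1, 2 and 3, a mean of 20.0% ± 8.82 (SD, n = 3). The Benjamini-Hochberg adjusted p of the exact binomial tests was 0.00468, while the other cytosines of its mRNA stood at 1.54%. Tomm20, a receptor for protein import into mitochondria, had 2 of 20, 4 of 24 and 4 of 18 at position 3617, or 16.3% ± 6.12. Herc1, a large ubiquitin ligase, had 2 of 22, 4 of 22 and 2 of 10 at position 9252. Usp16, which removes ubiquitin from histone H2A, had 3 of 24, 2 of 16 and 4 of 18 at position 1398. In these 4 sites every library stood at 9.09% or more, and the mean of the rest of the RNA was 1.46% to 1.54%. The call itself asked for every library to lie above background.

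The next sites were alike in size. Adi1, an enzyme of the methionine salvage pathway, had 4 of 19, 2 of 17 and 2 of 22 unconverted reads at position 1377. Atxn1l, a partner of the repressor Capicua, ranged most widely, with 1 of 21, 3 of 25 and 4 of 16 at position 2612, or 13.9% ± 10.3 (SD, n = 3). Fnip2, a partner of folliculin, had 2 of 31, 3 of 21 and 5 of 25 at position 2582. Nans, the sialic acid synthase, was the most even of the 16, with 3 of 25, 3 of 24 and 2 of 13 at position 269, or 13.3% ± 1.83. Pak1ip1, a ribosome assembly factor, had 6 of 29 in replicate 1 but 2 of 23 in each of replicates 2 and 3, at position 1608. Dhx9, an RNA helicase, had 2 of 13, 4 of 31 and 2 of 24 at position 3741.

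The remaining 6 ranged from 12.1% down to 10.1%. Fnbp4 had 1 of 19, 4 of 18 and 2 of 23 unconverted reads at position 4277, and a Benjamini-Hochberg adjusted p of 0.0298, the highest of the 16. Psmc4, an ATPase of the proteasome, had 3 of 26, 6 of 38 and 2 of 30 at position 1413, which is at 0.992 of its listed length. The cytoskeletal GTPase gene Septin1 had 1 of 16, 3 of 26 and 4 of 25 at position 279. The kinase gene Stk38 had 6 of 34, 2 of 45 and 3 of 27 at position 1884, and Ddit4, an inhibitor of mTORC1, 5 of 32, 1 of 24 and 2 of 16 at position 846. Bptf, a subunit of a chromatin remodeller, was the deepest with 3 of 46, 6 of 48 and 5 of 44 at position 2098, and had the lowest adjusted p of the 16, at 0.00012 (binomial test combined over libraries).

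Of the 16 candidates, 3 lay in the first, 6 in the middle and 7 in the last of 3 equal parts of their RNA. Of all lone cytosines, 28.2%, 34.7% and 37.1% lay in these parts. An unadjusted binomial p below 0.05 in all 3 libraries was reached by 9 of the 16. At 7 of the 16, a neighbouring listed cytosine had fewer than 10 reads in a library, as at Srsf2 and Psmc4. Of the gene groups, the splicing regulators held the 1 in Srsf2 and the others none.

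**Figure D4:**
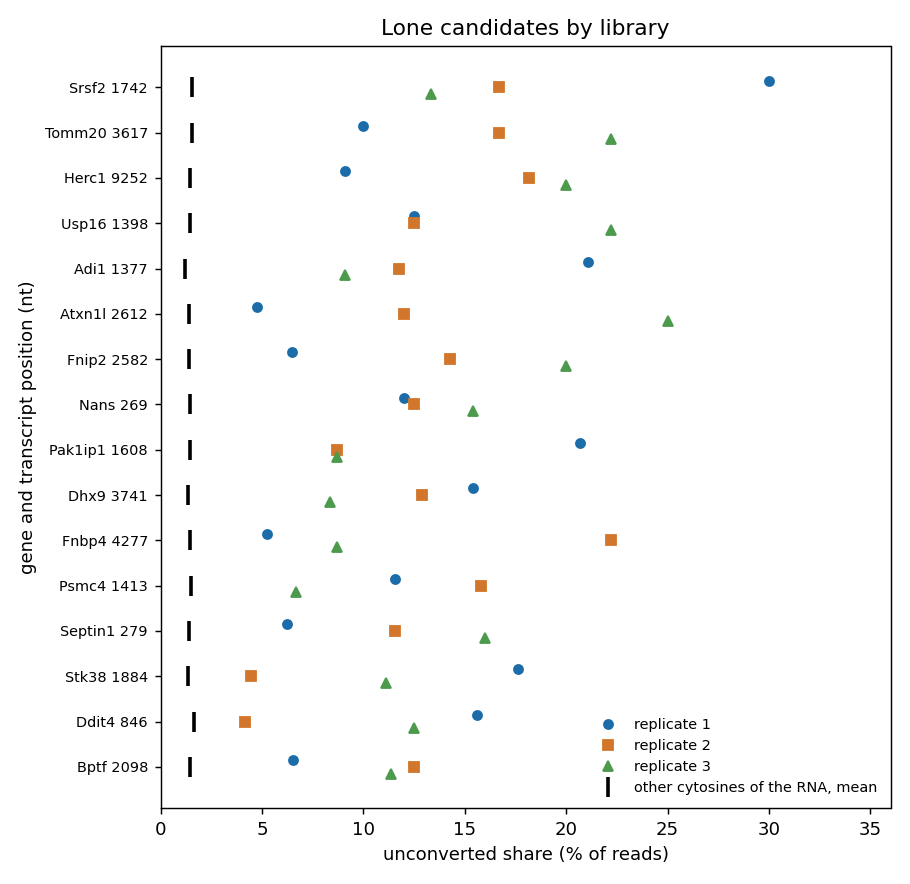
Unconverted share (percent of reads) at the 16 lone candidates in each library, with the gene and the position on its transcript; the bar marks the mean share of the other testable cytosines of the same RNA. The sites lie between 10.1% and 20.0% on average and spread widely between libraries, while the bars lie between 1.20% and 1.62%.

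The binomial test can pass a share of a few percent only at high coverage, so the share and the coverage of called sites are tied. Without the level minimum, 116 lone cytosines in 107 RNAs had an adjusted p below 0.05 and a share above background in each library, or 1.01%, against 0.469% of all testable cytosines. Of these, 55 lay below 5%, 45 at 5% to below 10% and 16 at 10% or above, and 76 had a mean coverage of at least 100 reads. At that coverage, 4.14% of the lone and 2.26% of the other cytosines of the same RNAs were called in this way. The binomial test allows for counting error alone, while shares spread more widely between cytosines. The beta-binomial rho, which is 0 without such extra spread, was 0.00225 to 0.00249 in the 3 libraries. Extra spread weighs most at deep sites, and the calls at any level were not repeated with a beta-binomial test. Whether a share of a few percent stems from modified cytosine or from incomplete conversion at that place was not tested.

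The deepest lone cytosine was position 951 of Ncl, with 314 of 9412, 434 of 11923 and 296 of 9285 reads unconverted. These are 3.34%, 3.64% and 3.19%, a mean of 3.39% ± 0.230 (SD, n = 3), against 1.52% ± 0.0799 at the other cytosines of the mRNA. Nucleolin, an abundant protein of the nucleolus, binds RNA and takes part in ribosome production. Of the 24 lone cytosines of Ncl, 4 passed the adjusted test at any level: positions 951, 988 (2.15% ± 0.0490), 2200 (3.63% ± 0.563) and 2230 (6.37% ± 0.917). At position 2230 the libraries gave 34 of 458, 41 of 693 and 29 of 503 reads. Its other lone cytosines lay between 0% and 5.42%, and over all 24 the share was 2.41% ± 0.161.

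Ptma encodes prothymosin alpha, a small acidic nuclear protein, and has several near-identical copies in the genome, so the origin of its reads is uncertain. Position 250 was unconverted in 206 of 5463, 278 of 6615 and 207 of 5916 reads, or 3.82% ± 0.355, and position 383 in 98 of 1364, 106 of 1826 and 71 of 1339, or 6.10% ± 0.975 (SD, n = 3). The 3 lone cytosines further downstream, at positions 783, 800 and 1105, stood at 0.538%, 1.35% and 0.662%, below or near the background. Of the 5, 2 were thus called and 3 were not.

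The other 3 of the 5 deepest lone cytosines were well converted. Hmgn2, a nucleosome-binding protein, had 55 of 7630, 46 of 8983 and 77 of 8504 reads unconverted at position 464, or 0.713% ± 0.197, where the rest of its mRNA stood at 1.37% ± 0.0267. Rps20, a ribosomal protein, had 1.19% ± 0.173 at position 256 and 1.50% ± 0.0395 elsewhere, and Snrpg, a core protein of spliceosomal RNPs, 1.16% ± 0.126 at position 172 and 1.52% ± 0.0354 elsewhere (SD, n = 3). All 3 libraries of each of these sites lay below the library background. These small abundant mRNAs, too, have near-identical copies, and the reads may not all be theirs.

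Among the lone cytosines with the lowest combined p, 9 are described here, named after their values were seen. Besides the 2 of Ncl and the 2 of Ptma, they lay in 5 further genes. Atp5a1, a subunit of ATP synthase, had 83 of 1550, 59 of 1387 and 75 of 1234 reads unconverted at position 670, or 5.23% ± 0.919. Fbl, the methyltransferase of nucleolar RNPs, had 5.44% ± 1.13 at position 1118 and Cox6c, a subunit of cytochrome oxidase, 5.79% ± 1.39 at position 458. Rpl17, a ribosomal protein with near-identical copies and so of uncertain read origin, had 3.50% ± 0.394 at position 343. Etnk1 had 7.18% ± 2.23 at position 4810, from 18 of 324, 32 of 329 and 18 of 287 reads (SD, n = 3 for each). The mean shares of the other cytosines of these mRNAs lay between 1.29% and 1.62%, below every library of every one of the 9 sites. The choice of sites by a low p favours this.

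**Figure D5:**
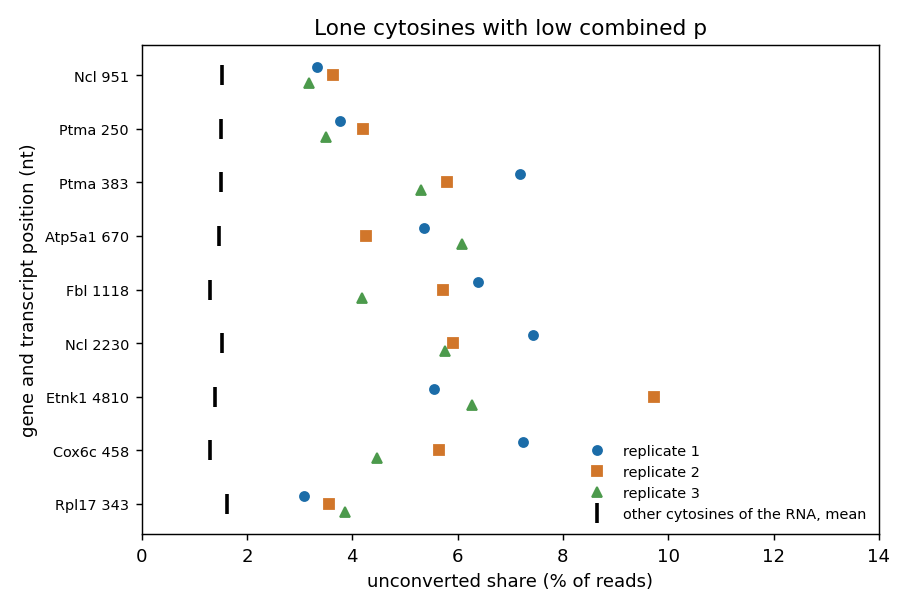
Unconverted share (percent of reads) in each library at 9 lone cytosines among those with the lowest combined p, with gene and position; the bar marks the mean share of the other testable cytosines of the same RNA. The sites, picked by their low p, lie between 3.39% and 7.18% on average, and every library lies above its bar.

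Just inside an adjusted p of 0.05 were Eif2s3y (position 841, 7.06% ± 1.62, 11 of 154 reads), Dnajc2 (1374, 3.71% ± 0.415, 25 of 670), Pdia3 (941, 4.40% ± 2.89, 15 of 320), Lrpprc (4533, 2.21% ± 0.417, 83 of 3691) and Tcf7 (1361, 8.60% ± 4.03, 9 of 115). Just outside were Topors (2921, 6.12% ± 1.69, 12 of 198), Srbd1 (342, 7.58% ± 4.97, 9 of 116), Ing5 (4003, 7.09% ± 2.46, 10 of 141), Rps3a1 (149, 2.27% ± 0.336, 82 of 3627) and Hsp90b1 (294, 5.52% ± 2.55, 12 of 205). Pdia3 was not called, because its replicate 2 (1.12%) lay below background. The sites inside and outside the threshold overlapped in share and in reads.

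Between the gene groups, the lone share lay on either side of that of the other cytosines. The 13 lone cytosines of the RNA 5-methylcytosine writers and readers stood at 2.43% ± 0.314, the other cytosines of these genes at 1.63% ± 0.0871, and the lone values 2.59%, 2.07% and 2.63% lay above all 3 of the others. Of the 13, 3 passed the adjusted test at any level, 2 in Ybx1 and 1 in Nsun2, and none was a candidate. Of all testable cytosines 0.469% passed in this way, and of lone cytosines at 100 reads or more 4.14%. The lone cytosines of Ybx1 had a mean coverage of 648 reads and those of Nsun2 133. In Ybx1 the 3 lone cytosines stood at 2.58% ± 0.369 from 5836 reads, in Nsun2 at 2.77% ± 0.549 from 1200 reads, and in Nop2 at 1.58% ± 0.693 from 767 reads (SD, n = 3). The splicing regulators stood at 1.70% ± 0.0528 against 1.60% ± 0.0686, with Srsf6 at 1.84% ± 0.271 and Hnrnph1 at 1.82% ± 0.0642. Without Hnrnph1, which gave 15763 of their 43422 reads, the difference was 0.0242 ± 0.00599 points in place of 0.0954 ± 0.0244. Early-response mRNAs stood at 1.18% ± 0.329 against 1.48% ± 0.0495, a value set by 1 gene. Mcl1, a survival factor of the Bcl2 family, stood at 0.923% ± 0.145 and gave 9870 of the 13817 reads. Without it the group stood at 1.84% ± 0.843 against 1.46% ± 0.0314, so the direction turned. Ccnd1, cyclin D1, stood at 2.99% ± 1.91 against 1.34% ± 0.0664. Ribosomal proteins (1.51% ± 0.147 against 1.45% ± 0.0681) and pluripotency genes (1.65% ± 0.319 against 1.38% ± 0.0548) differed by less than the spread of the lone value. Without Lin28a the pluripotency genes differed by 0.885 ± 0.716 points in place of 0.273 ± 0.365, and without Rps20 the ribosomal proteins by 0.115 ± 0.0953 in place of 0.0557 ± 0.0980. The replicative helicase and Pcna stood at 1.64% ± 0.0690 against 1.45% ± 0.0699, and the proteins that bind AU-rich elements at 1.90% ± 0.976 against 1.51% ± 0.0518, a difference of 0.387 ± 0.982 points, or 0.721 ± 0.898 without Khsrp. None of these group differences was tested.

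Libraries were more alike at deeper sites. In the class of 10 to below 20 reads, 47.7% of the lone cytosines had no unconverted read in any library and 1.89% had one in all 3, against 52.4% and 1.24% of the others. At 100 reads or more, 0.654% had none and 75.4% had one in all 3 libraries, against 0.865% and 72.0%. Pearson's r between libraries across lone cytosines was 0.0545 to 0.0988 in the lowest coverage class and 0.370 to 0.398 in the highest (n = 3073 and 1836 sites), and 0.0534 to 0.0549 and 0.359 to 0.366 across the others. These correlations are across cytosines, which share RNAs and reads and are not independent replicates.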

How the data were processed

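Per the submitters' processing notes, the authors used BSMAP and the build mm9. Not given in the sources used here: versions, counting and annotation. As deposited, the tables give, per the file headers, each listed cytosine's RNA, position, coverage (a read count) and unconverted fraction. The lowest listed coverage was 3. Coverage summed over cytosines was 151362866, 142608298 and 139884444 in replicates 1, 2 and 3. Fraction times count was whole, within 1e-06, at 100% of cytosines and was taken as unconverted reads.

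Symbols came from RefSeq accessions without version (4114 of the 4132 RNAs matched). Tests and intervals used scipy 1.17.1 in Python 3.11.15 and were tested on simulated data. The background was each library's share over all listed cytosines. Members and lists were chosen with earlier results of these data known. Named were all lone candidates, the 10 genes with most lone cytosines, the 5 deepest sites, the 5 longest gaps, the 10 sites nearest the threshold and up to 3 genes per list (further names were picked with their values in view). 1 item is not reported here. Alternatives were the coverage minimum, the window, read flanks, single-transcript genes, the background, the test, the level and leaving out each library.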

Additional observations from a re-analysis of the deposited data

How the results depend on the processing

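The difference of 0.212 percentage points between lone and other cytosines kept its direction under each alternative tried, from 0.114 as a median over RNAs to 0.513 with a window of 20 nt (372 sites), and 0.205 to 0.224 when each library was left out. The ratio within RNAs ran from 1.12 without Ncl and Ptma, added after seeing the data, to 1.31 with the wide window, and 1.14 to 1.16 without 1 library. The step by distance was 0.519 to 0.574 points without 1 library. The count of 16 lone candidates was 5 at a coverage minimum of 20, 82 with a window of 5 nt (109290 sites), 1 with a window of 20 nt, 9 where both flanks were read, 0 with the highest p-value, 1 at a mean share of at least 20%, and 8 to 12 without 1 library. It was 11 with a beta-binomial test and 16 against the background of the same RNA. Over all testable cytosines, 0.0487% were called at a coverage minimum of 20, where 7241 were lone, and 0.0473% with either window or read flanks. The share was 0.00665% with the highest p-value and 0.00531% at a mean share of at least 20%. Without 1 library it was 0.0455% to 0.0485%, with a beta-binomial test 0.0345% and against the same RNA 0.0449%. Fewer or more sites entered under the other windows, coverage and flanks; the cause of the other changes was not tested. The shift in median position, 0.109 of the listed length, was 196 nt from the first listed cytosine, 0.0998 at a coverage minimum of 20 and 0.221 with a window of 20 nt. At 10 to below 20 reads, 47.7% of lone cytosines had no unconverted read, which limits what single shallow sites show. Among 7 gene lists, leaving out the gene with most reads at lone cytosines, added after seeing the data, turned the difference of the early-response mRNAs from -0.294 to 0.372 points (without Mcl1). Lone and other cytosines were compared within each library. No paired analysis was possible because the 3 libraries form 1 group, with no other group to pair them with.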
